A study of Macaca mulatta with 2 samples.

Results

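The 10 genes described here encode secreted factors with which the Sertoli cells of the seminiferous tubule instruct germ cells and neighbouring cells of the testis. They are GDNF, FGF2, CXCL12, CSF1, LIF, KITLG, DHH, NTF3, BDNF and VEGFC. They were taken by gene name, as the gene probes of the arrays whose annotated name is one of these, and made up 10 of the 21509 gene names on the array. In all, 22 probes of 60 bases carried these names, between 1 and 5 per gene and each printed as 1 spot. The rule itself uses gene names and no measured value.

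Primary Sertoli cell cultures of rhesus macaques gave the RNA, which was hybridised to 2 one-colour oligonucleotide arrays, 1 per group. The infant culture came from testes of males younger than 3 months. The pubertal culture came from males of 18 to 22 months that had been juvenile and had received gonadotropin-releasing hormone (GnRH) through a catheter, in pulses that lasted 2 min and came every 3 h, at 0.15 µg/min, over 4 to 5 weeks. Both cultures had received follicle-stimulating hormone (FSH, 5 ng/ml) together with testosterone (100 nM) for 12 h, and an untreated culture is not analysed here. The pubertal group is therefore a model of puberty induced by hormone, with age and GnRH changed together, and both groups carry the same hormone stimulus. The sources used here do not give the number of animals behind each culture. The comparison asks whether the transcripts of these factors differ in level between infant and pubertal cells. With 1 array per group no difference could be tested, and every value below compares these 2 cultures.

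GDNF, made by Sertoli cells, acts through RET and its co-receptor GFRA1 on undifferentiated spermatogonia and is known to maintain spermatogonial stem cells. FGF2, CXCL12, CSF1 and LIF are further factors reported to act on these stem cells or on the cells around them, whereas KITLG signals through KIT to differentiating spermatogonia. DHH is the Hedgehog ligand of Sertoli cells, read by peritubular and Leydig cells through PTCH1 and SMO. NTF3 and BDNF are neurotrophins that bind TRK receptors, and VEGFC is a growth factor of lymphatic vessels that binds FLT4.

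The probes were designed on human sequence, so each one may bind the macaque transcript with its own efficiency. Their sequences matter here because probes of 1 gene gave unequal differences between the arrays for LIF, CSF1 and GDNF, and because CXCL12 was seen with 1 of its 5 probes. The 30 middle bases of the 60 (bases 16 to 45, written 5′ to 3′ as the array files list them) are given for those genes and for KITLG, except CXCL12 probe 4 and CXCL12 probe 5, which were below detection on both arrays. Capitals mark bases that lie in a stretch of 58 bases shared by CXCL12 probe 2 and CXCL12 probe 3, which are thus nearly the same probe shifted along the transcript.
LIF probe 1: ggtacagatgttcctgccttagagtcatct
LIF probe 2: aagctgggctgtcaactcctggggaagtat
CSF1 probe 1: gcaaccagagggcagccccctgactcagga
CSF1 probe 2: tgcatcatactgttgtcatatgttgagcct
GDNF probe 1: gccgccggacgggactttaagatgaagtta
GDNF probe 2: acaaaagggtaaagtttgtgatttttcttt
GDNF probe 3: tcactgacttgggtctgggctatgaaacca
GDNF probe 4: ttatcctgatcagttcgatgatgtcatgga
KITLG probe 1: atatactgtatgtgtactttttaaaatagg
KITLG probe 2: aagagtcatcgcaggaagaagttaagaaca
KITLG probe 3: tttctcttataattggctttgcttttggag
CXCL12 probe 1: ataaatgcgatccacagaaggtcctggtgg
CXCL12 probe 2: CTGCCCAGAAAAGGAAAAACTAGTTATCTG
CXCL12 probe 3: GGCTGCCCAGAAAAGGAAAAACTAGTTATC

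Apart from that pair, no 2 probes of the same gene shared more than 8 bases in a row, so the probes of LIF, CSF1, GDNF and KITLG read separate parts of their transcripts. None of the middle windows occurred in a probe of another gene (0 of the 22). The share of G and C ranged from 25% to 75% across the probes. CSF1 probe 1 is annotated to 4 RefSeq transcripts and CSF1 probe 2 to 1, so these probes can read different CSF1 isoforms. The array files leave the probes' genome positions unmapped, and no position is given for them.

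A level here is the log2 of a probe's processed intensity minus the 75th percentile of its array, which was 406.7 intensity units for the pubertal and 382.4 for the infant culture. A probe counted as detected where the scanner software marked its spot well above background, and the lowest such level was -4.29 in the pubertal and -4.37 in the infant culture. Where several probes of a gene were detected on both arrays, their mean was used. Errors are those of the scanner software's error model, which covers the array and not the spread between cultures. Over the 14243 genes detected on both arrays the median difference, pubertal minus infant, was -0.06 and the median error 0.20. The signal well above background covered 54.9% and 54.8% of gene spots, and no gene spot was saturated (0 on each array). When the arrays were scaled on spike-in control RNAs in place of the 75th percentile, every difference became 1.00 higher on the log2 scale, so each direction below is relative to the bulk of the genes.

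The labelled cell type was checked on 14 Sertoli cell markers, and 14 of 14 were detected on both arrays, among them SOX9, WT1, GATA4, AMH and FSHR. Their summed level, on a linear scale in units of the array's 75th percentile, was 340 in the pubertal and 245 in the infant culture. Markers of other testis cells were present too. For germ cells the summed level was 16.9 against 5.18, and for macrophages and myeloid cells 6.12 against 2.12. Peritubular myoid markers summed to 188 against 119, steroidogenic Leydig markers to 71.8 against 172, fibroblast markers to 39.3 against 44.1, endothelial markers to 1.44 against 0.657 and proliferation markers to 8.30 against 12.1. Single genes weighed on some sums, as an alternative added after the data were seen showed. Without TF the Sertoli markers summed to 261 against 237, and without STAR the Leydig markers to 66.5 against 71.6. Without DCN the fibroblast markers summed to 33.6 against 28.0, and without CD163 the macrophage markers to 2.98 against 1.75. UTF1 weighed most on the germ cell sum of the infant culture. Its log2 level there was 1.88, against -0.67 for NANOS3, the next highest germ cell marker, and UTF1 differed by 0.24 between the arrays. In RNA from whole cultures, fewer cells of a type and less RNA per cell cannot be told apart.

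Of the 10 factors, 7 were detected on both arrays, CXCL12 and NTF3 on the pubertal array alone, and BDNF on neither. CSF1 was at least 2-fold higher in the pubertal culture and LIF at least 2-fold lower, which makes 1 of 7 in each direction. Over all genes detected on both arrays, 7.32% were higher by 2-fold or more and 6.32% lower by 2-fold or more. KITLG, GDNF, FGF2, DHH and VEGFC differed by less than 2-fold. The median difference of the 7 was -0.39, against -0.06 over all genes, and it was 0.61 on the spike-in scale. Detection on the pubertal array alone held for 2 of the 10 factors and for 4.2% of all gene names, and detection on the infant array alone for 0 of the 10 and for 3.13% of all names.

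**Figure D1:**
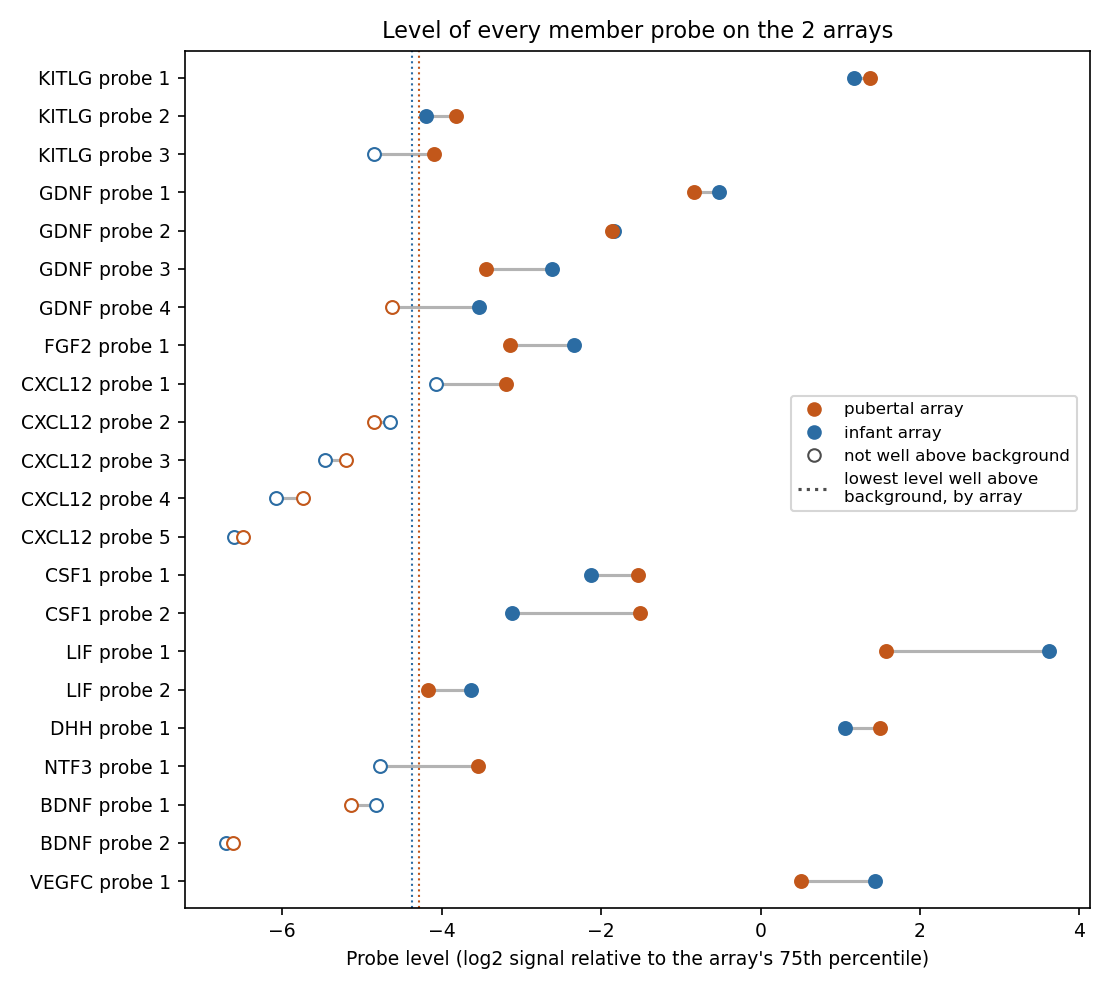
Level of each of the 22 probes on the pubertal (orange) and infant (blue) array, as log2 intensity relative to the array's 75th percentile. Filled points were well above background and open points were not, and dotted lines mark the lowest level well above background on each array (-4.29 and -4.37). The widest gap between filled points is that of LIF probe 1, and 6 probes are open on both arrays.

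GDNF was measured by 4 probes, and after scaling none of them was higher in the pubertal culture, though on the spike-in scale their mean was. GDNF probe 1 gave 229 intensity units in the pubertal and 267 in the infant culture, a difference of -0.31 ± 0.21 (log2 ± scanner error). GDNF probe 2 gave 112 and 107, which is -0.02 ± 0.22 after scaling, and GDNF probe 3 gave 37.4 and 62.6, or -0.83 ± 0.31. GDNF probe 4 read 16.5 and 33.0 intensity units and reached detection only in the infant culture. The mean of the 3 probes detected on both arrays was -0.39 ± 0.14, that is 1.31-fold lower in the pubertal culture, and the spike-in value was 0.61. Among all genes detected on both arrays, 26.6% were as low or lower. The 3 probes spanned 0.81, so a single value for GDNF rests on probes that did not give the same difference. GDNF probe 1 and GDNF probe 2 are annotated to 0 RefSeq transcripts, GDNF probe 3 to 3 and GDNF probe 4 to 2. All 4 are annotated to Ensembl transcripts, GDNF probe 1 and GDNF probe 3 to 1 and GDNF probe 2 and GDNF probe 4 to 2. GDNF probe 4, left out of the mean, differed by -1.09 ± 0.49. Whether the annotation bears on these differences was not tested.

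FGF2, a fibroblast growth factor used with GDNF to keep spermatogonial stem cells in culture, had 1 probe. It read 46.1 intensity units in the pubertal and 75.6 in the infant culture. The difference was -0.80 ± 0.27, or 1.74-fold lower in the pubertal culture, and on the spike-in scale it was 0.20. Of all genes, 10.1% were as low or lower.

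CXCL12, the chemokine that binds CXCR4 and is known for holding stem cells in their niches, was detected with 1 of 5 probes and on the pubertal array alone. CXCL12 probe 1 read 44.6 intensity units there and 22.7 on the infant array, where the spot was not well above background. Set against its own infant signal, CXCL12 probe 1 read 1.85-fold higher in the pubertal culture (0.89 ± 0.41). This is a measured ratio and not a strict lower bound. The near-identical CXCL12 probe 2 and CXCL12 probe 3 read 14.1 and 15.2, and 11.1 and 8.70, all below detection. CXCL12 probe 4 and CXCL12 probe 5 were not above 7.62 intensity units on either array. The result for CXCL12 therefore rests on 1 spot per array.

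CSF1, a growth factor of macrophages that is also reported to act on spermatogonial stem cells, had the largest excess in the pubertal culture among the 7 factors measured on both arrays. CSF1 probe 1 read 140 intensity units in the pubertal and 87.7 in the infant culture, a difference of 0.59 ± 0.22. CSF1 probe 2 read 143 and 44.0, a difference of 1.61 ± 0.24. Both probes were higher in the pubertal culture, but by unequal amounts, and CSF1 probe 2, annotated to 1 transcript, gave the larger difference. Their mean was 1.1 ± 0.16, or 2.14-fold higher, a value that 6.09% of all genes reached or passed. The SD between the probes was 0.72, and 8.85% of genes with several detected probes had one as large. CSF1 was under 2-fold in 4 processing alternatives, from 0.59 with the brightest probe to 0.99 with quantile normalization.

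The receptor of CSF1, the tyrosine kinase CSF1R of macrophages, was 4.2-fold higher in the pubertal culture, at 202 intensity units against 45.3 (2.07 ± 0.24). CSF1R is also 1 of the 10 macrophage and myeloid markers, of which 8 were detected on both arrays with a median difference of 0.96. Of these 8, 4 were at least 2-fold higher, against 7.32% of all genes. CD163, a scavenger receptor of macrophages, differed by 3.09, PTPRC by 1.99 and TYROBP by 1.32, whereas CD68 differed by -0.94 and ITGAM by -0.08. AIF1 was detected on the pubertal array alone and MARCO on neither. The part of these cells in the CSF1 and CSF1R values was not tested.

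LIF, a cytokine of the interleukin-6 family that signals through LIFR and IL6ST, showed the largest difference of these 7 factors. LIF probe 1 read 1216 intensity units in the pubertal and 4682 in the infant culture. The difference was -2.03 ± 0.20, or 4.10-fold lower in the pubertal culture. LIF probe 2 read 22.5 and 30.9, a difference of -0.55 ± 0.38. Both probes were lower in the pubertal culture, and they differed from each other by 1.49, more than the scanner error of either. Their mean was -1.29 ± 0.22, or 2.45-fold lower, and 3.25% of all genes were as low or lower. The SD between the probes was 1.05, which 2.96% of genes with several detected probes reached. On the spike-in scale the mean was -0.29, which is under 2-fold.

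**Figure D2:**
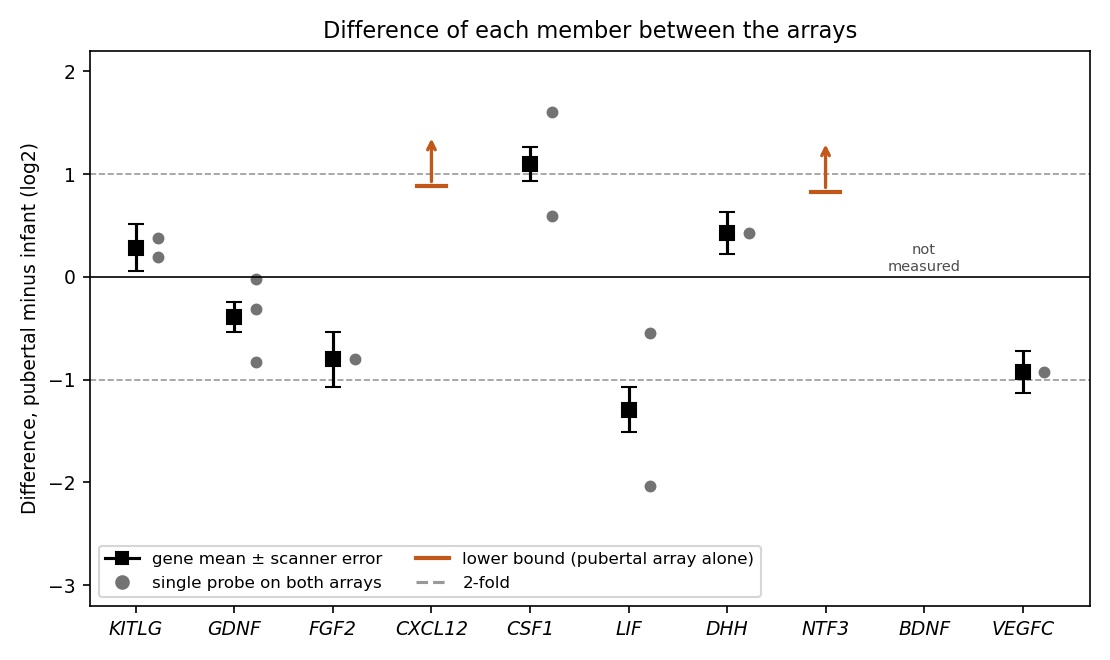
Difference between the arrays (pubertal minus infant, log2) for each factor. Squares are gene means with the scanner error, grey points are single probes detected on both arrays, and dashed lines mark 2-fold. Orange bars with arrows mark the lower bound for NTF3 (0.83) and, for CXCL12, the ratio to its own infant signal (0.89). CSF1 and LIF lie past 2-fold in opposite directions, each with 1 probe short of that line, and GDNF, FGF2 and VEGFC lie below 0 here but above 0 on the spike-in scale.

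KITLG, also called stem cell factor, differed little between the cultures. KITLG probe 1 read 1050 intensity units in the pubertal and 865 in the infant culture, a difference of 0.19 ± 0.20. KITLG probe 2 read 28.7 and 20.8, or 0.37 ± 0.41. KITLG probe 3 read 23.8 and 13.3 and was detected on the pubertal array alone. All 3 probes were higher in the pubertal culture, and the 2 measured on both arrays differed by no more than their scanner errors. The mean was 0.28 ± 0.23, or 1.22-fold higher, and 27.4% of all genes were as high or higher.

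KIT, the receptor of KITLG on germ cells, was detected on the pubertal array alone, at 154 intensity units against 3.90, and was at least 7.83-fold higher there. Its counterpart for GDNF was less clear, since both probes of GFRA1 stayed below detection on both arrays, with at most 22.7 intensity units. RET was detected with 1 of 2 probes on the pubertal array alone, at 24.3 against 6.30 intensity units, which bounds the excess at 1.24-fold or more. KIT and GFRA1 are also among the 14 germ cell markers. Of those, 7 were detected on both arrays with a median difference of 2.65, DDX4, MAGEA4, KIT, SYCP3 and SOHLH1 on the pubertal array alone, DPPA4 on the infant array alone and GFRA1 on neither. The part of germ cells in the KIT and RET values was not tested.

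DHH had 1 probe, which read 1147 intensity units in the pubertal and 800 in the infant culture. The difference was 0.43 ± 0.20, or 1.35-fold higher in the pubertal culture, and 20.4% of all genes were as high or higher. Among the receptors that read DHH, SMO, the signal-transducing partner of the patched receptors, was 3.36-fold lower in the pubertal culture, at 286 against 903 intensity units (-1.75 ± 0.21). BOC, a co-receptor, was 2.44-fold lower at 29.5 against 67.8 intensity units (-1.29 ± 0.32), but at -0.58 it was under 2-fold in 1 alternative besides spike-in scaling. The co-receptor GAS1 differed by -0.20. PTCH1, which is both the receptor and a known target of the pathway, read 24.7 against 6.47 intensity units without being well above background on either array, and CDON was likewise below detection with both probes.

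Among 15 listed Hedgehog targets and regulators, not all of which act downstream of DHH, 13 were detected on both arrays. Of these, 3 were higher by 2-fold or more and 0 lower, against 7.32% and 6.32% of all genes. The median was -0.04, or 0.96 on the spike-in scale. It was also above 0 with the percentile over detected probes, the brightest probe and the median of all probes. The count of 3 was 1 with normexp background correction and 2 with median scaling or quantile normalization. The transcription factor GLI2 was 3.27-fold higher, with both probes alike (1.59 and 1.82), and GLI1, a standard readout of Hedgehog signalling, was 3.02-fold higher at 127 against 39.4 intensity units. GLI3 was detected on the pubertal array alone and was at least 3.58-fold higher. The Hedgehog-binding protein HHIP, another known target, differed by -0.07. GLI1 was 0.76 in 1 alternative, under 2-fold. The third gene past 2-fold, the Dispatched family member DISP2 at 1.09, was under 2-fold in 3 alternatives. Peritubular myoid markers, from cells known to receive DHH, had a median difference of 1.15 with 6 of 9 at least 2-fold higher. Steroidogenic markers, from Leydig cells that also receive it, held 3 of 7 at least 2-fold lower (STAR at -4.24, CYP17A1 at -4.21 and CYP11A1 at -1.37) and 4 of 7 above 0, with a median of 0.25. The part of these cells in the GLI, SMO and BOC values was not tested.

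NTF3, a neurotrophin that binds NTRK3, had 1 probe and was detected on the pubertal array alone. It read 34.9 intensity units there and 14 on the infant array. Against the lowest level detected on the infant array it was at least 1.78-fold higher. BDNF, the ligand of NTRK2, was detected on neither array: BDNF probe 1 read 11.5 and 13.5 intensity units and BDNF probe 2 read 4.13 and 3.67. No fold is given for BDNF, and its transcript was not detectable with these probes.

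Few probes of the neurotrophin receptors were detected. NTRK2 was measured with 1 of 5 probes (-0.61) and NTRK3 with 1 of 2 (0.07). NGFR, the receptor shared by the neurotrophins, passed detection in the infant culture alone. It read 43.8 intensity units there and 10.8 in the pubertal culture, where it was at least 2.24-fold lower.

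VEGFC had 1 probe, which read 578 intensity units in the pubertal and 1035 in the infant culture. The difference was -0.93 ± 0.20, or 1.90-fold lower in the pubertal culture, and on the spike-in scale it was 0.07. It lay just inside the 2-fold limit, and 7.49% of all genes were as low or lower. Its receptor FLT4 differed by -0.25 with 1 of 3 probes, and KDR was below detection. The co-receptor NRP2 differed by 0.41 with 1 of 4 probes, while another of its probes, detected on the infant array alone, read 16.2 against 30.1 intensity units. NRP2 was below 0 in 3 alternatives, to -0.29 at the lowest. Of the 10 endothelial markers, 3 were detected on both arrays, TEK on the pubertal array alone, and CDH5, TIE1, KDR, FLT1, EMCN and ROBO4 on neither.

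**Figure D3:**
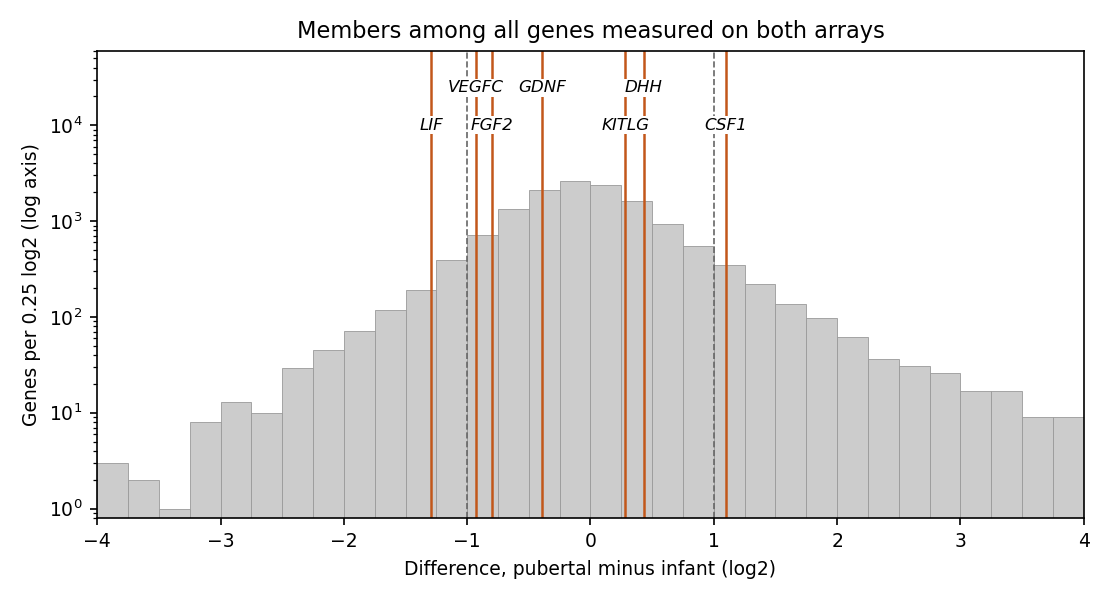
Distribution of the difference (pubertal minus infant, log2) over the genes detected on both arrays between -4 and 4, as the number of genes per bin on a log axis, with the 7 factors detected on both arrays as orange lines and 2-fold as dashed lines. LIF and CSF1 lie past the 2-fold lines, where 6.32% and 7.32% of all genes also lie, and the other 5 lie between them.

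Large differences were more frequent among faint genes, which bears on FGF2 and CSF1. Genes with a mean level below -2, to which both belong, numbered 2769, and 17.4% of them were at least 2-fold different in either direction. The share was 16.1% of 4016 genes with a mean level from -2 to 0, where KITLG, GDNF and LIF lie, and 10.9% of 7458 genes above 0, where DHH and VEGFC lie. KITLG and LIF lie there only as the mean of a bright and a faint probe. LIF probe 1 had levels of 1.58 (pubertal) and 3.61 (infant), and LIF probe 2 -4.18 and -3.63. KITLG probe 1 had 1.37 and 1.18, and KITLG probe 2 -3.82 and -4.20.

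Taking all 24 receptors, co-receptors and signalling partners of the 10 factors, 17 were detected on both arrays. Of these, 2 were at least 2-fold higher (FGFR3 and CSF1R) and 2 at least 2-fold lower (SMO and BOC), against 7.32% and 6.32% of all genes. The median was -0.24, turning to 0.76 on the spike-in scale. FGFR3, a receptor for FGF2 and other fibroblast growth factors, had the largest difference among the 17. Its probe detected on both arrays read 923 against 35.3 intensity units (4.62 ± 0.28, or 24.6-fold higher), and its other probe was detected on the pubertal array alone at 40.4 against 18.2. Without spike-in scaling, the FGFR3 difference was 2.84 at its smallest. The part of germ cells or other cells in the FGFR3 value was not tested. The other FGF receptors differed by less than 2-fold, with FGFR1 at -0.66 (3 of 6 probes, from -0.98 to -0.04), FGFR2 at 0.55 and FGFR4 at -0.38. CXCR4, the receptor of CXCL12, differed by 0.79 and the scavenging receptor CXCR7 by -0.24. For LIF, the receptor LIFR differed by -0.69 and the shared subunit IL6ST by -0.55.

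Ligands of the same families were compared next, with 17 of 27 detected on both arrays and 9 on neither. Of the 17, 6 were at least 2-fold lower and 2 at least 2-fold higher, against 6.32% and 7.32% of all genes, and the median was -0.51, or 0.49 on the spike-in scale. With normexp the count of lower ligands was 3. IL6, a cytokine that like LIF signals through IL6ST, was 5.59-fold lower in the pubertal culture, at 288 against 1514 intensity units (-2.48 ± 0.21). FGF1 was 5.53-fold lower with 2 of 4 probes (-2.52 and -2.41), and the chemokine CXCL14 was 3.53-fold lower. These FGF1 probes read 25.1 and 28.3 intensity units in the pubertal culture, where the lowest detected intensity was 20.8. Without spike-in scaling, the FGF1 difference reached -1.22 at its smallest. CLCF1, another cytokine of the interleukin-6 family, was detected on the infant array alone. Others past 2-fold were chosen for mention after their values were seen, namely FGF9 at 1.34, FGF18 at -1.47, VEGFB at -1.16 and VEGFA at -1.08. Of the ligands named here as past 2-fold, FGF18, VEGFA and VEGFB went under 2-fold in 1 alternative each besides the spike-in scaling.

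**Figure D4:**
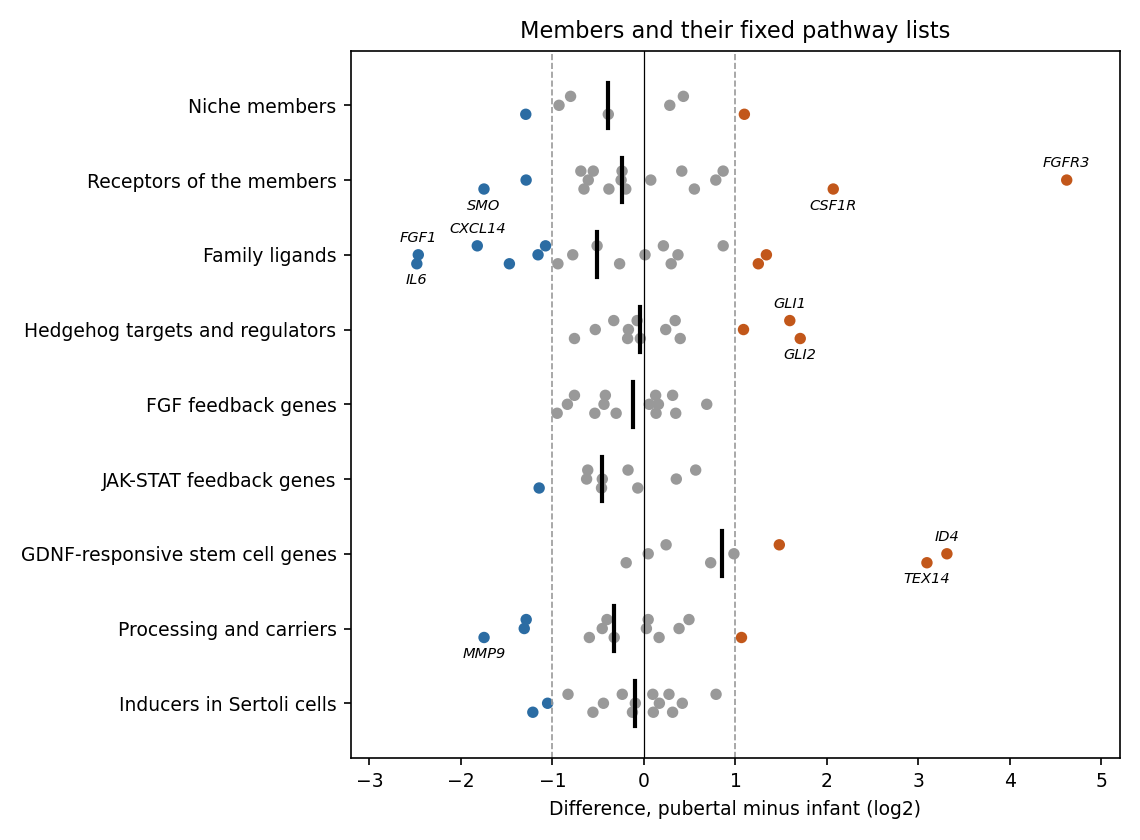
Difference (pubertal minus infant, log2) of each gene detected on both arrays, for the 10 factors and the 8 pathway lists, with at least 2-fold higher genes in orange, at least 2-fold lower genes in blue and the list median as a black bar. The list drawn as GDNF-responsive holds genes known from GDNF-maintained spermatogonial stem cells, and a response to GDNF was not measured. That list has the highest median (0.86) and the family ligands the lowest (-0.51). Every other median is below 0 here and above 0 on the spike-in scale, and so is that of the family ligands.

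Of 12 genes known from GDNF-maintained spermatogonial stem cells, 8 were detected on both arrays, with a median of 0.86. Among these, 3 were higher by 2-fold or more and 0 lower, against 7.32% and 6.32% of all genes. ID4, a marker and regulator of spermatogonial stem cells, was 9.92-fold higher, TEX14, a protein of germ cell bridges, 8.53-fold and NANOS3 2.79-fold. SALL4 and BCL6B, seen on the pubertal array alone, were higher by at least 3.96-fold and 1.32-fold. ZBTB16 (0.98), UTF1 (0.24), TEX14 and NANOS3 also belong to the germ cell markers given above, and the part of germ cells in this list was not tested.

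Genes that respond to FGF and MAP kinase signals differed little. Of 15, 14 were detected on both arrays, with a median of -0.12 (0.87 on the spike-in scale). Of these, 0 were 2-fold or more higher or lower, against 7.32% and 6.32% of all genes. Differences ranged from -0.95 to 0.69. ETV5, a transcription factor reported to act downstream of FGF2 and GDNF, differed by 0.31, and ETV1 was detected on the pubertal array alone.

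Targets and brakes of LIF-type cytokine signalling had 9 of 10 genes detected on both arrays, with a median of -0.46 (0.54 on the spike-in scale). At least 2-fold higher were 0 of the 9 and at least 2-fold lower was 1, against 7.32% and 6.32% of all genes. JUNB was 2.21-fold lower (just under 2-fold in 1 alternative besides spike-in scaling), and the others were under 2-fold. The 2 genes above 0 were SOCS2 (0.57) and SOCS3 (0.35), both inhibitors of the pathway. STAT3, its transcription factor, differed by -0.46.

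Proteases, sorting receptors and binding proteins of the 10 factors had 13 of 20 genes detected on both arrays, with a median of -0.32 (0.67 on the spike-in scale). At least 2-fold higher was 1 of the 13 and at least 2-fold lower were 3, against 7.32% and 6.32% of all genes. MMP9, a secreted metalloprotease known to release KITLG from membranes, was 3.36-fold lower in the pubertal culture. The heparan sulphate carrier SDC1 was 2.48-fold lower and the membrane metalloprotease MMP14 2.44-fold lower. SORL1, a sorting receptor, was 2.09-fold higher. Besides spike-in scaling, SDC1 was under 2-fold in 3 alternatives, MMP14 in 1 and SORL1 in 1, and the count of lower genes was 1 with normexp.

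Hormone receptors and transcription factors through which Sertoli cells are known to set the output of such factors had 15 of 17 genes detected on both arrays, with a median of -0.09 (0.90 on the spike-in scale). None was at least 2-fold higher (0 of 15, against 7.32% of all genes). TNFRSF1A (-1.21) and FOSL2 (-1.05) were at least 2-fold lower, as were 6.32% of all genes. With normexp neither TNFRSF1A nor FOSL2 was (0 of 15), and besides spike-in scaling FOSL2 was under 2-fold in 3 alternatives and TNFRSF1A in 1. FSHR, the receptor of the FSH added to both cultures, differed by 0.79 ± 0.35 with 1 probe, at 42.3 against 23.0 intensity units. Its lowest value among the alternatives was 0.24. HEY1, a target of Notch signalling, was detected on the pubertal array alone and was at least 4.45-fold higher, whereas HES1, another Notch target, differed by -0.24.

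**Figure D5:**
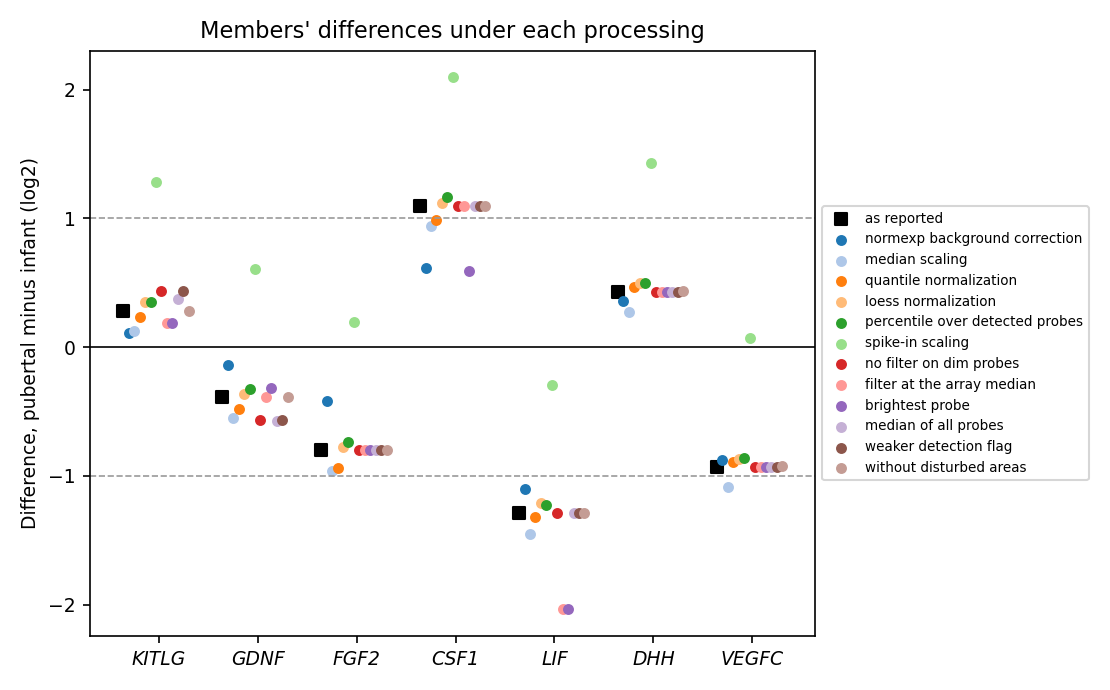
Difference (pubertal minus infant, log2) of the 7 factors detected on both arrays, as reported (black squares) and under each processing alternative (coloured points), with 2-fold as dashed lines. The spike-in points lie above all others, with GDNF at 0.61, FGF2 at 0.20 and VEGFC at 0.07, and LIF lies from -2.03 to -1.1 under the other alternatives.

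The direction of each of the 7 factors was kept in all alternatives other than spike-in scaling, within ranges that differed in width. KITLG lay between 0.11 and 0.44, DHH between 0.27 and 0.50, and CSF1 between 0.59 and 1.16. GDNF lay between -0.57 and -0.14, FGF2 between -0.96 and -0.42, VEGFC between -1.09 and -0.86, and LIF between -2.03 and -1.1. VEGFC passed 2-fold with median scaling alone. On the spike-in scale LIF stayed below 0 at -0.29, the other 6 were above 0, and CSF1, DHH and KITLG were past 2-fold at 2.09, 1.43 and 1.28.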

How the data were processed

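Total RNA of 2 cultures was labelled with Cy3 and hybridised to 2 arrays, per the labels' protocols, that shared slide and scan, per the file headers. The submitters' processing notes name Agilent Feature Extraction 10.5.1.1, and the intensity of each spot was used as deposited. The processed intensity, per the file headers, was background-subtracted and detrended within each array, with surrogates for low signals and a multiplicative error of 10%, and the array was designed for human transcripts (hg18).

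Of 52857 spots per array, 51538 were gene spots. Outlier spots (96 pubertal, 91 infant) were left out. Levels are log2 intensity minus the array's 75th percentile. Detection of a probe required 50% or more of its spots to be well above background. A gene detected on 1 array was set against the other array's lowest detected level, which gives a lower bound. Where the gene's own signal there was higher, as for CXCL12, that signal was used, and the value is a measured ratio. The 10 factors, the pathway lists and the cell type markers were chosen with earlier results of these data known. The rule for naming genes took all 10 factors, their receptors, and up to 3 genes per list that were at least 2-fold different or detected on 1 array. A few genes it covers are not reported here. Genes named as chosen after their values were seen fall outside it, and so do genes given for context. Lists overlap (CSF1R, KIT, GFRA1, PTCH1 and KDR are receptors and markers). No test was possible, and precision is limited by the number of arrays. Replicate spots of 78 probes had a median SD of 0.088 and 0.081 (log2), which covers the array alone.

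Alternatives were normexp background correction (limma 3.58.1, offset 50), median, quantile, loess (span 0.3), detected-probe and spike-in scaling, 2 other filters on dim probes, the brightest probe or the median probe per gene, thresholds of 1.5- and 4-fold, a weaker detection flag, and leaving out 773 spots in disturbed areas of the slide, none of which belonged to the 10 factors (0 spots). Gene and count functions were tested on simulated data (Python 3.11.15, R 4.3.3).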

Additional observations from a re-analysis of the deposited data

How the results depend on the processing

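Of 464 values recomputed under an alternative, 359 moved by less than their error or, for counts, stayed within 1.5 times, the others moved further, and 0 reversed a called direction. With 1 array per group, no alternative has a test. The count of factors at least 2-fold higher was 0 with normexp background correction, median scaling, quantile normalization, the brightest probe and a threshold of 4-fold, 2 with no filter on dim probes or the weaker detection flag, and 3 with spike-in scaling, against 1 as reported. The count at least 2-fold lower was 2 with median scaling, 3 at 1.5-fold, and 0 with spike-in scaling or at 4-fold. The median over the factors was -0.14 with normexp, 0.61 with spike-in scaling, 0.0795 without a filter and 0.00134 with the weaker flag. Spike-in scaling raised the list medians to 0.76 (receptors), 0.49 (family ligands), 0.96 (Hedgehog), 0.87 (FGF feedback), 0.54 (JAK-STAT), 1.85 (genes of GDNF-maintained stem cells), 0.67 (processing) and 0.90 (inducers). Without a filter on dim probes the medians were 0.31 (receptors), -0.0072 (family ligands), -0.22 (JAK-STAT), -0.0066 (processing) and -0.34 (inducers). With the weaker flag they were 0.0745 (receptors), -0.27 (JAK-STAT), -0.0737 (processing) and -0.34 (inducers), and with the brightest probe JAK-STAT was -0.20. Of all genes past 2-fold, 53.7% were higher as reported, 37.6% with median scaling, which lowered all differences by 0.16, and 98.1% with spike-in scaling. The count of all genes higher was 1042 as reported, 553 with normexp (568 lower, against 900), 2081 without a filter (1485 lower), 1710 with the weaker flag (1363 lower), 785 with median scaling (1305 lower), 6495 with spike-in scaling (123 lower), 2142 at 1.5-fold (2392 lower) and 238 at 4-fold (122 lower). Without spike-in scaling, the value for CXCL12 lay between 0.35 and 0.95 and the lower bound for NTF3 between 0.25 and 0.96. The cause of these shifts was not tested. Signals near background limit CXCL12, NTF3, BDNF, KITLG probe 2, LIF probe 2, FGF1 and FSHR. No paired analysis was possible because each group has 1 array.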
